A study of Gallus gallus with 4 samples.

Results

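Myosin heavy chains are the motor proteins of thick filaments, and 10 of their genes were followed in chicken breast muscle. The 10 genes are MYH1A, MYH1B, MYH1C, MYH1D, MYH1E and MYH1F, which belong to the fast skeletal cluster, the slow and cardiac-type genes MYH7B and MYH15, and the non-muscle genes MYH9 and MYH10. They were chosen by name: a row counted when its gene name, or any of its comma-separated names, was one of the 10. All 10 were found, on 10 of the 18973 rows of the expression table, and 6 of them carried a valid estimate in both breeds.

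Pectoralis muscle was taken on day 28 after hatching from Isfahani birds, a native Iranian chicken, and from Ross 708 birds, a commercial broiler line. Messenger RNA of 4 libraries was sequenced, 2 per breed, and each library pooled equal amounts of RNA from 3 birds of that breed. The labels give no treatment, no sex and no batch. The deposited values are FPKM, fragment numbers scaled to transcript length and library size, with 1 value per breed, so levels can be compared between genes but no breed value has an SD or an n of its own. The column headed Commercial was taken as Ross 708, the only group left once Native was matched to Isfahani. Sequencing depth is unknown from these values. The series title names growth of muscle by hypertrophy as its question, and the myosin heavy chains make up much of the protein that a growing fibre adds.

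Each myosin heavy chain has a motor head that binds actin and splits ATP and a long coiled tail that packs into filaments. Birds carry the fast skeletal genes side by side, and embryonic, neonatal and adult forms of this cluster replace each other as a muscle matures. The breast muscle of adult chickens is built almost wholly of fast glycolytic fibres. Slow and cardiac-type heavy chains serve slow fibres and the heart, and the non-muscle forms drive contraction of the cell cortex in most cell types, those of vessels and connective tissue included.

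Of the 6 myosin heavy chain genes with an estimate, 3 were higher in Ross 708 by the authors' deposited test, at a q-value at or under 0.05. They were the fast genes MYH1D and MYH1A and the non-muscle gene MYH9. None was called higher in Isfahani, and MYH7B, MYH15 and MYH10 were not called. Of all 11626 tested rows 5.21% were called, with 3.07% favouring Ross 708 and 2.14% favouring Isfahani. The unadjusted p in the authors' deposited table was under 0.05 for 6 of the 6 genes, as it was for 17% of all tested rows. The value was higher in Ross 708 for 5 of the 6 genes and higher in Isfahani for MYH7B. Their median log2 ratio, log2 of (Ross 708 FPKM + 1) over (Isfahani FPKM + 1), was 0.92, beside -0.034 over all tested rows. Of the 3 called genes MYH1D also passed a q-value threshold of 0.01 and a required absolute log2 ratio of at least 1, and MYH1A and MYH9 passed neither. In bulk RNA, more cells of a type and more RNA per cell cannot be told apart.

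**Figure D1:**
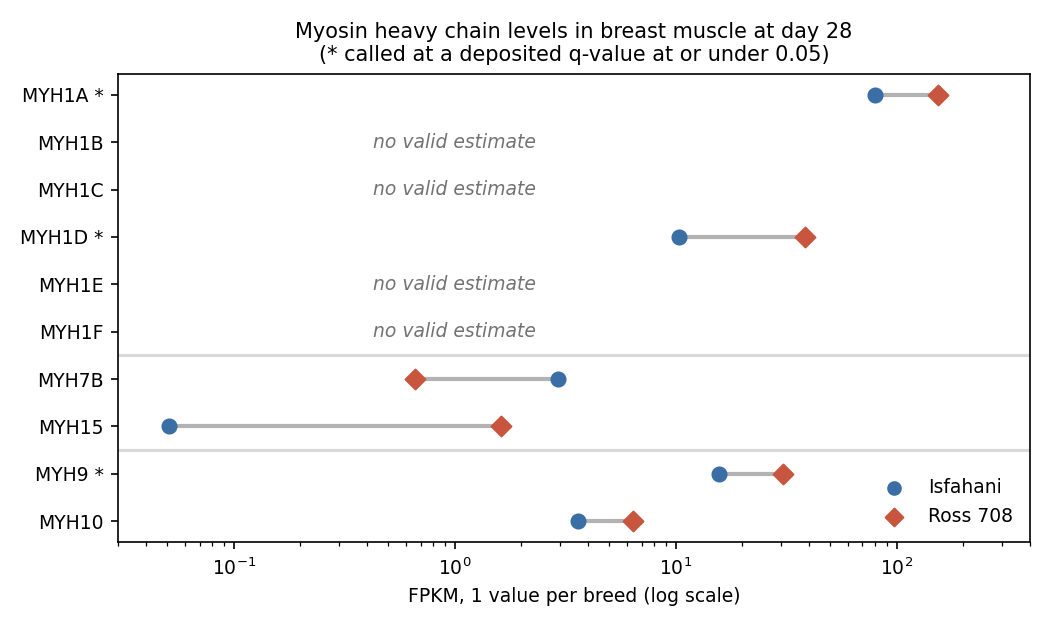
Levels of the 10 myosin heavy chain genes, with FPKM on a logarithmic x axis and 1 point per breed (circles, Isfahani; diamonds, Ross 708); stars mark genes called at a deposited q-value at or under 0.05. MYH1A had the highest estimated level in both breeds, 5 of 6 genes lay further right in Ross 708, MYH7B lay further left, and 4 fast genes had no valid estimate.

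Within the fast cluster, MYH1A was the most abundant gene with an estimate. Isfahani had 80.04 FPKM and Ross 708 154 FPKM of MYH1A (chromosome 18, 433289 to 451636, galGal5 as deposited). The Ross 708 level was 1.92 times the Isfahani level (log2 ratio 0.93), and the authors' deposited table gave it a q-value of 0.0429. That q-value lay close to the threshold: the largest q-value among called rows was 0.0499 and the smallest among uncalled rows 0.0505. MYH1A exceeded 92.5% of tested rows in Isfahani and 96.3% in Ross 708.

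MYH1D showed the widest relative difference of the called myosins. RefSeq (GRCg7b) also lists this gene under the names MYH1B, MYH3, Myosin-1B and Myosin-3. It lists the separate gene MYH1B under MYH3 as well, so these names can stand for either gene. Rows were matched here by the deposited symbol only. Isfahani had 10.3 FPKM and Ross 708 38.4 FPKM of MYH1D (chromosome 18, 350874 to 373463). The level in Ross 708 was thus 3.72 times that in Isfahani (log2 ratio 1.80), and its q-value in the authors' deposited table was 0.00245, the floor that 237 rows share. Among all tested rows 0.989% had a larger absolute log2 ratio than MYH1D. MYH1A was 7.76 times as abundant as MYH1D in Isfahani and 4.00 times in Ross 708, and the difference between these proportions was not tested. Together the levels of both genes came to 90.4 FPKM in Isfahani and 192 FPKM in Ross 708.

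The other 4 fast genes cannot be compared. Cuffdiff, whose column layout the table has, writes the status HIDATA for a locus with too many fragments to be resolved, and the rows of MYH1B, MYH1C, MYH1E and MYH1F carry it. The MYH1F row (chromosome 18, 381894 to 399588) shows 0 for Isfahani and 1013.5 FPKM for Ross 708, and this entry is no estimate and gives no ratio. The rows of MYH1B, MYH1C and MYH1E are listed at 0 in both breeds. All 3 are given the same interval (chromosome 18, 473712 to 638720), and the MYH1B row is shared with MYH1G, another fast heavy chain gene. A listed 0 here does not show that a gene was silent, and the sum of fast myosin in either breed is not known.

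The genes lie in one unbroken run. In the order of the deposited loci MYH13 comes first, followed by MYH1D, MYH1F, MYH1A and the shared interval of MYH1B, MYH1G, MYH1E and MYH1C. RefSeq (GRCg7b), in which all 10 studied symbols were found, gives the order MYH13, MYH1D, MYH1F, MYH1A, MYH1B, MYH1E, MYH1C and MYH1G between GAS7 and SCO1, with 0 other protein-coding genes among these 8. MYH13, known in mammals as a very fast myosin of eye and larynx muscles, was not among the 10 genes but lies in this run. Isfahani had 11.5 FPKM of it and Ross 708 24.2 FPKM (log2 ratio 1.01), and the authors' deposited table gave q = 0.00245. Only rows with a name that begins with MYH were taken for the run. All 3 such rows with an estimate were called higher in Ross 708, beside 3.07% of all tested rows. The other MYH rows of the run have no estimate. The flanking rows were not called, but only 5.21% of all tested rows were called in either direction. GAS7 stood at 8.91 and 10.2 FPKM in Isfahani and Ross 708. SCO1, a copper chaperone gene of the respiratory chain, stood at 13.5 and 14.4 FPKM. Genes of such a cluster are alike in sequence, though how alike was not measured here. Fragments of the abundant copies without an estimate could therefore be counted for MYH1A, MYH1D or MYH13. The part of such sharing in these 3 differences was not tested.

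**Figure D2:**
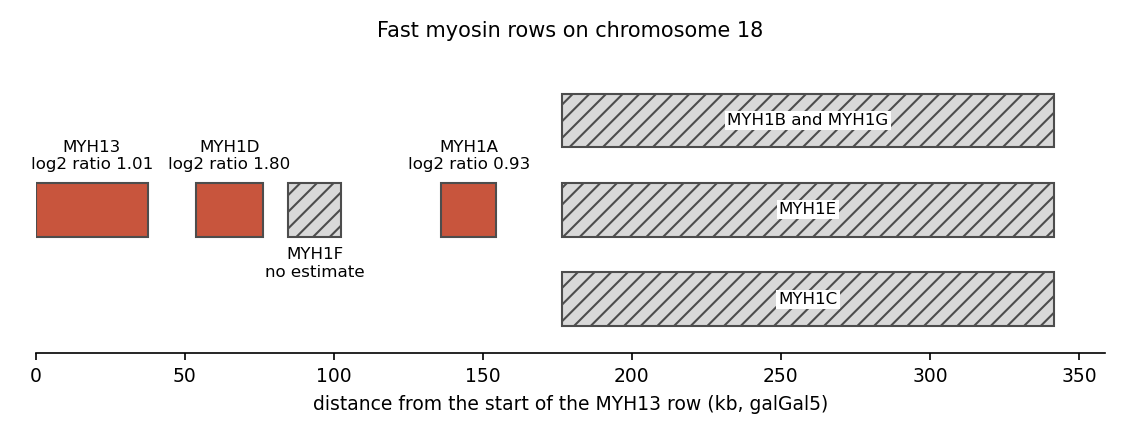
The run of fast myosin rows on chromosome 18, drawn by distance in kb from the start of the MYH13 row; filled bars are rows with an estimate and carry their log2 ratio of Ross 708 over Isfahani, hatched bars are rows without one, and the 3 stacked bars share 1 deposited interval. The 3 filled rows had log2 ratios of 1.01 (MYH13), 1.80 (MYH1D) and 0.93 (MYH1A).

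The slow and cardiac-type genes were scarce in both breeds and pointed in opposite directions, without a call for either. MYH7B, a slow heavy chain that RefSeq also lists as SM2, was measured at 2.92 FPKM in Isfahani and 0.663 FPKM in Ross 708. The Isfahani level was 4.41 times the Ross 708 level (log2 ratio -1.24), with q = 0.182 in the authors' deposited table. Its row (chromosome 20, 2909190 to 2962000) shares its interval with TRPC4AP, at 26.02 and 17.3 FPKM, and with the microRNA gene MIR499A, listed at 0 in both breeds. In mammals MYH7B hosts this microRNA in an intron.

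MYH15, which RefSeq also lists as VMHC1 and which encodes the ventricular heavy chain of the chicken heart, was measured at 0.0509 FPKM in Isfahani and 1.63 FPKM in Ross 708. Without a pseudocount this is a 31.97-fold difference (log2 ratio 4.999). With the pseudocount of 1 FPKM the log2 ratio was 1.32, and with 0.1 FPKM it was 3.52, so the size of this ratio rests on how a value near 0 is treated. The q-value in the authors' deposited table was 0.156. The row (chromosome 1, 86867700 to 86923787) shares its interval with HHLA2, at 1.73 and 1.16 FPKM. MYH7, which RefSeq also lists as AMHC1, was marked as too low to test, with 0.0248 FPKM in Isfahani and a listed 0 in Ross 708.

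Calls were rarer among scarce transcripts. Among 3116 tested rows whose higher breed value was from 1 to under 4 FPKM, where MYH7B and MYH15 lie, 3.24% were called. Of the 148 such rows with an absolute log2 ratio of at least 1, 33.1% were called. The same share was 73.1% among 167 rows from 16 to under 64 FPKM, MYH1D and MYH13 among them. MYH9 lies in that range of levels, but its log2 ratio of 0.91 leaves it out of the 167. With the pseudocount of 1 FPKM, this ratio requirement asks for a larger raw difference at low levels, so these shares rest on unlike differences. Without a pseudocount, 150 rows from 1 to under 4 FPKM were at least 4-fold apart, as MYH7B and MYH15 were. Of these 150 rows 20% were called. A missing call for MYH7B or MYH15 therefore does not show that the breeds had like levels.

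**Figure D3:**
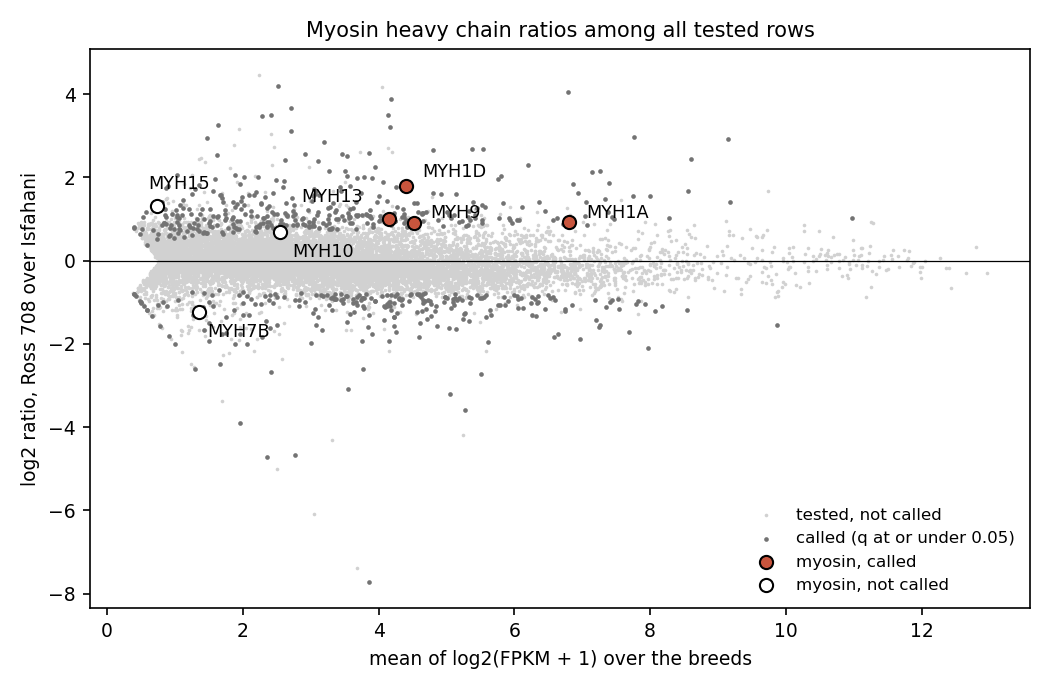
Log2 ratio of Ross 708 over Isfahani (y axis) against the mean of log2(FPKM + 1) over the breeds (x axis) for all 11626 tested rows; small points are single rows, dark where called, and large points are the 6 studied myosin genes with an estimate plus MYH13, filled where called. MYH1D, MYH13, MYH9 and MYH1A were called, and the uncalled MYH7B and MYH15 lie at the low end of the x axis.

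Both non-muscle heavy chains had higher values in Ross 708, and MYH9 was called. MYH9, the heavy chain of non-muscle myosin IIA (chromosome 1, 51598402 to 51667160), was measured at 15.7 FPKM in Isfahani and 30.4 FPKM in Ross 708. The Ross 708 level was 1.94 times the Isfahani level (log2 ratio 0.91), with q = 0.0165 in the authors' deposited table. MYH10, the heavy chain of non-muscle myosin IIB, had 3.63 FPKM in Isfahani and 6.41 FPKM in Ross 708. Its log2 ratio was 0.68 and its q-value 0.257 in the authors' deposited table, with an unadjusted p of 0.0393. The MYH10 row (chromosome 18, 1676731 to 1825099) shares its interval with NDEL1, at 14.1 and 11.6 FPKM, so its level is less certain. MYH9 was 4.32 times as abundant as MYH10 in Isfahani and 4.75 times in Ross 708.

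In both breeds the order of levels was led by MYH1A. In Isfahani it was followed by MYH9, MYH1D, MYH10, MYH7B and MYH15, and in Ross 708 by MYH1D, MYH9, MYH10, MYH15 and MYH7B. No spread between libraries is given, so it cannot be said which neighbours in these orders differed. Of the summed FPKM of the 6 genes, 113 in Isfahani and 231 in Ross 708, MYH1A made up 71.1% and 66.5%, MYH1D 9.16% and 16.6%, and MYH9 13.9% and 13.2%. These shares leave out the 4 fast genes without an estimate.

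MYL12A and MYL9, regulatory light chains that pair with non-muscle and smooth muscle heavy chains, were also higher in Ross 708. MYL12B, another of this kind, had no row. MYL12A had 80.7 FPKM in Isfahani and 216 FPKM in Ross 708, and MYL9 had 13.2 and 36.4 FPKM, with log2 ratios of 1.41 and 1.40 (q = 0.00245 for each in the authors' deposited table). Of 11 myosin light chain symbols 7 had a row and 3 were tested: 2 were called higher in Ross 708, beside 3.37% of 9202 tested gene symbols, and MYL10 was not called at 0.141 and 1.24 FPKM. MYL1, the main fast essential light chain, had no valid estimate. MYL2, MYL3 and MYL4, light chains of slow, cardiac or embryonic muscle, were too low to test, with no value above 0.542 FPKM. Of 10 further heavy chain symbols 3 had a row and 2 were tested, MYH13 and MYH11. MYH11, the smooth muscle heavy chain, was not called at 1.90 and 2.75 FPKM (q = 0.574 in the authors' deposited table). Of 8 kinases and phosphatase subunits that set light chain phosphorylation, 0 were called by the authors' test, and 1 had an unadjusted p under 0.05. Those with the highest mean of the breed values were MYLK2, the skeletal muscle light chain kinase, at 313 and 217 FPKM in Isfahani and Ross 708, and PPP1CB, a phosphatase catalytic subunit, at 68.4 and 81.9 FPKM. PPP1R12B, a phosphatase targeting subunit, had 76.03 and 74.1 FPKM.

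Other cell types of the tissue express MYH9, and many of their markers had higher values in Ross 708 as well. Of all tested gene symbols 3.37% were called higher in Ross 708, which stands beside each count of calls that follows. The median log2 ratio of all tested gene symbols was -0.032. It was 0.63 for the leukocyte, 0.59 for the fibroblast and 0.35 for the endothelial markers. For the smooth muscle markers it was 0.37 and for the Schwann cell markers -0.18. The leukocyte markers were higher in value in 8 of 8 tested genes and called in 1, CSF1R at 19.99 and 40.4 FPKM. The summed level of the 8 was 2245 FPKM in Isfahani and 2905 FPKM in Ross 708. Most of that sum came from CD74, at 2138 and 2734 FPKM, which was not called and whose locus overlaps 14 other rows. The fibroblast markers were higher in value in 6 of 6 tested genes and called in 1, LUM at 109 and 249 FPKM. The sums of this list were 1769 and 2873 FPKM. Most of each sum came from COL3A1, at 957 and 1582 FPKM, which was not called. COL1A1 was listed at 0 in both breeds, while COL1A2 stood at 304 and 476 FPKM. The endothelial markers were higher in value in 7 of 7 tested genes and called in 0 by the authors' test. The unadjusted p of that test was under 0.05 for 2 of these 7, beside 17% of all tested rows. CDH5 stood at 14.9 and 20.98 FPKM and ENG at 14.8 and 18.3 FPKM, and the endothelial sums were 58.6 and 80.2 FPKM. The smooth muscle markers were higher in value in 3 of 5 and called in 1, ACTA2 at 10.5 and 21.3 FPKM, with sums of 32.9 and 47.1 FPKM; the ACTA2 locus overlaps another row. Among these 4 lists no marker with a row other than COL1A1 was at 0. The Schwann cell marker PMP22 was not called at 84.1 and 74.5 FPKM. None of the 4 erythroid markers with a row was tested, and HBAA, HBAD and HBZ were listed at 0 in both breeds. Neither these 0 values nor that of COL1A1 show that a gene was silent. The part of these cell types in the MYH9 and MYH10 differences was not tested.

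**Figure D4:**
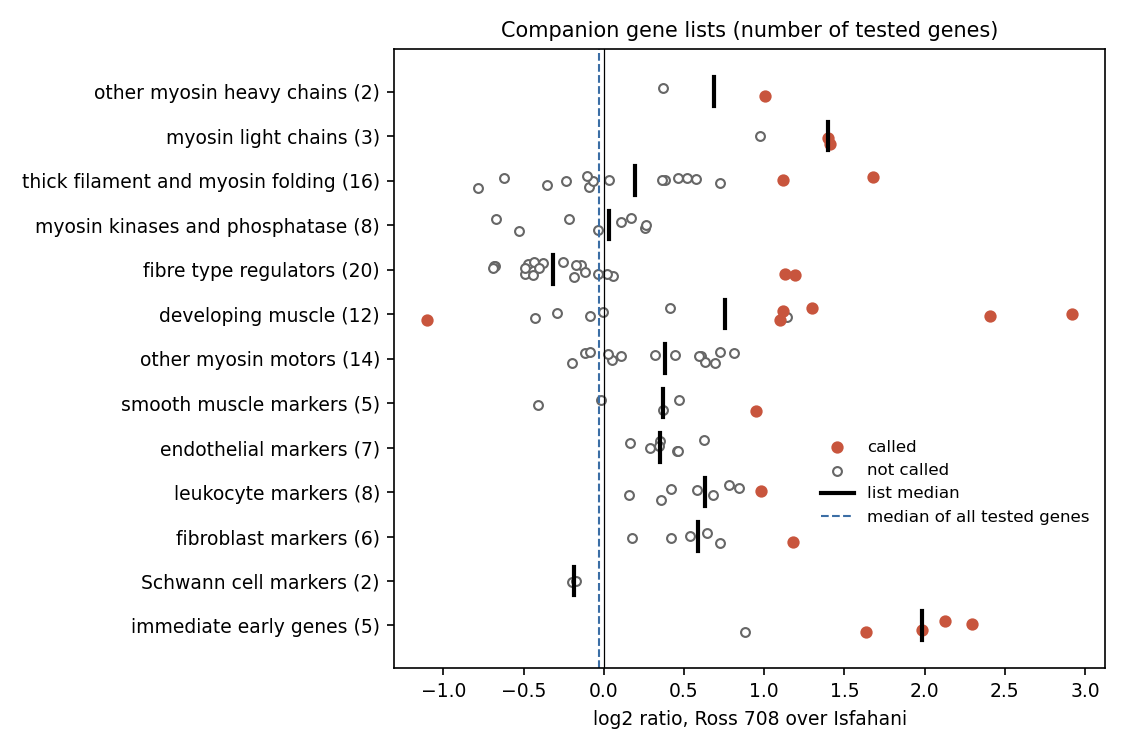
Log2 ratio of Ross 708 over Isfahani (x axis) for the tested genes of each companion list (y axis, number of tested genes in brackets), with called genes filled, a bar at the list median and a dashed line at the median of all tested genes. Both called light chains lie near 1.4, while most fibre type regulators lie left of 0.

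Other proteins hold and fold myosin in the sarcomere. Of 16 tested genes of the thick filament and of myosin folding, 2 were called, both with the higher level in Ross 708, where 3.37% of 9202 tested gene symbols were called in that direction and 2.05% in the other, and the list median log2 ratio was 0.20 beside -0.032. The called genes were MYBPC3, the cardiac form of myosin-binding protein C, at 3.74 and 14.2 FPKM, and MYOM3, an M-band protein, at 0.316 and 1.86 FPKM. Titin, TTN, stood at 322 and 299 FPKM, the M-band gene MYOM2 at 728 and 693 FPKM, and SMYD1, a methyltransferase needed for thick filament assembly, at 200.02 and 169.99 FPKM, none of them called. These 3 abundant genes mark the tissue as striated muscle. UNC45B, the chaperone that folds the myosin head, was not called at 46.9 and 70.4 FPKM (q = 0.233 in the authors' deposited table). The unconventional myosin motors, which carry cargo or link membrane to actin, gave 0 calls among 14 tested genes by the authors' test. The unadjusted p of that test was under 0.05 for 5 of these 14 motors, beside 17% of all tested rows. The most abundant were MYO18B, a myosin of the sarcomere, at 84.3 and 87.3 FPKM and MYO18A at 36.98 and 34.1 FPKM.

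Of 20 tested regulators of fibre type, 2 were called and both had more in Ross 708, where 3.37% of all tested gene symbols were called in that direction. They were NFATC2, a calcineurin-dependent factor, at 2.70 and 7.11 FPKM, and MEF2B, at 3.43 and 9.11 FPKM (q = 0.00245 and 0.00612 in the authors' deposited table). The value was higher in Ross 708 for 4 of the 20. The unadjusted p by the authors' test was under 0.05 for 6 of the 20, beside 17% of all tested rows. The other 18 were not called and the list median log2 ratio was -0.32. Family members of the called genes were among these 18, with NFATC1 at 44.07 and 26.9 FPKM and MEF2C at 88.4 and 77.6 FPKM. SOX6, a repressor of slow fibre genes, was also not called, with 6.001 FPKM in Isfahani and 4.87 FPKM in Ross 708.

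Genes of developing and regenerating muscle were looked at because several fast heavy chains are developmental forms. Of 12 tested genes, 6 were called, 5 with the higher level in Ross 708 and 1 with the lower, beside 3.37% and 2.05% of all tested gene symbols. The former were ACTC1, cardiac actin, at 206 and 1564 FPKM, TNNT2 at 2.76 and 18.9 FPKM, MSTN, the growth inhibitor myostatin, at 43.3 and 108 FPKM, NCAM1, an adhesion molecule of immature fibres, at 16.01 and 35.9 FPKM, and CHRNG, the fetal subunit of the muscle acetylcholine receptor, at 8.69 and 19.8 FPKM. MYOD1, the myogenic regulator, was higher in Isfahani at 238 and 110 FPKM. MYOG was not called at 16.4 and 22.1 FPKM, nor was PAX7, the satellite cell factor, at 6.33 and 5.89 FPKM. The value was higher in Ross 708 for only 7 of the 12 genes, and the list median log2 ratio was 0.76. Much of this list was known to differ from an earlier account of the same table, so its count is no independent evidence.

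Immediate early genes, which respond quickly to handling among other stimuli, differed in the same libraries. Of 5 tested, 4 were called higher in Ross 708, beside 3.37% of all tested gene symbols: FOS at 66.6 and 294 FPKM, EGR1 at 32.3 and 162 FPKM, JUN at 68.7 and 216 FPKM, and ATF3 at 6.49 and 28.7 FPKM. The loci of JUN and ATF3 overlap another row, and the list's summed level was 298 and 930 FPKM. Their part in the myosin differences was not tested. This list too was chosen with earlier results of these data known, so its count is no independent evidence.

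The tested rows nearest to each called heavy chain in log2(FPKM + 1) over the 2 breed values were found as a description. For MYH1A they were INSIG1 (83.6 and 160 FPKM), S100A4 (77.8 and 146 FPKM) and FHL1 (76.1 and 164 FPKM). For MYH1D they were SFRP2 (10.7 and 37.6 FPKM), BTBD2 (10.5 and 36.1 FPKM) and TPPP3 (9.27 and 34.3 FPKM), and for MYH9 they were SEPT9 (15.6 and 30.5 FPKM), LIMS1 (15.8 and 31.6 FPKM) and GEM (15.2 and 29.2 FPKM). Like levels did not bring like calls: BTBD2 had a q-value of 0.574 and LIMS1 of 0.356 in the authors' deposited table, against 0.00245 for MYH1D and 0.0165 for MYH9.

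The authors' deposited table of terms for genes higher in Ross 708 held 1095 terms and 271 genes. By comparison, 357 rows were called higher in Ross 708. MYH9 was listed in 123 of the terms and MYH13 in 20. MYH1A and MYH1D, though called, were listed in none, so nothing can be read from it about their functions. A Benjamini-adjusted p at or under 0.05 was given for 92 of these MYH9 terms and 16 of the MYH13 terms in the authors' deposited table. Among the terms with MYH9 were actin filament-based process (32 genes, 2.96-fold enriched, Benjamini-adjusted p = 6.53e-06 in the authors' deposited table) and platelet aggregation (6 genes, 6.99-fold, Benjamini-adjusted p = 0.0221 in the same deposited table). MYH13 was listed under muscle contraction (17 genes, 3.22-fold, Benjamini-adjusted p = 0.00181 in the authors' deposited table). The sheet is headed as down in Ross, but all 279 tested rows whose symbol it lists had the higher value in Ross 708.

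**Figure D5:**
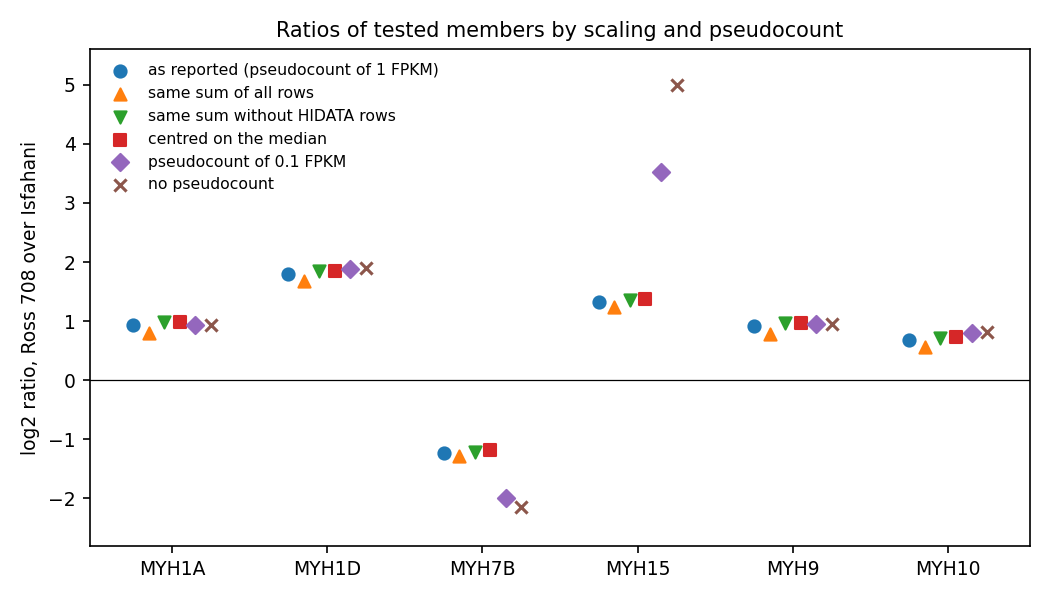
Log2 ratio of Ross 708 over Isfahani (y axis) of the 6 myosin heavy chain genes with an estimate (x axis) as reported and under 5 other scalings or pseudocounts (symbols). MYH15, the scarcest in Isfahani, ranged from 1.24 to 4.999, and MYH1A from 0.80 to 0.98.

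Under the 5 other scalings and pseudocounts tried, which shift all rows nearly alike or cannot turn a sign, the ratios moved in size. MYH1A ranged from 0.80 to 0.98, MYH1D from 1.67 to 1.90, MYH9 from 0.79 to 0.97 and MYH10 from 0.56 to 0.82. MYH7B ranged from -2.14 to -1.19, and MYH15 had the widest range.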

How the data were processed

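Per the labels' protocols, RNA was extracted with Trizol, pooled by breed in sets of 3 birds, made into libraries with a TruSeq kit and sequenced as paired reads of 150 bases. Reads were handled with Cufflinks 2.2.1 and HISAT2 on galGal5, with FastQC 0.11.5 and Trimmomatic also named, per the submitters' processing notes. The sources used here do not give the annotation, the strand setting or the library scaling. The table holds the authors' FPKM, 1 value per breed, their log2 fold change, a test statistic (a deposited score, not used), and the deposited p-value and q-value. The authors' enrichment sheets give gene counts, fold enrichment as a ratio, and p-values, per the file headers.

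A row was called at a deposited q-value at or under 0.05. These q-values equal Benjamini-Hochberg values over 11626 tested rows to within 5.22e-07; 7307 rows were too low to test, 39 had status HIDATA and 1 FAIL. No test per gene could be run here, because the table gives no value per library. Nothing in the labels says that pools came from separate flocks, so the authors' p-values measure at most the spread between these pools. Ratios used a pseudocount of 1 FPKM, which understates the change of low genes. Where a symbol had more than 1 tested row, the most abundant was taken. Loci are as deposited; rows that share an interval are less certain.

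The 10 genes, 14 companion lists and the rules were chosen with earlier results of these data known. Named list genes were the called ones, up to 6 per list, or the most abundant. UNC45B, MYL10, MYL12B, MYH7, MYL1, TTN, MYOM2, SMYD1, SOX6, MYOG and PAX7 were added for their roles. NFATC1, MEF2C and COL1A2 were added as relatives of other named genes, and CD74 and COL3A1 for their part in a sum. The adjustment and the ratio were tested on simulated data. A planned comparison of protein sequences was not made, since no protein sequence was used here. Work was done in Python 3.11.15 with pandas 2.3.3. Some items of the lists are not reported here.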

Additional observations from a re-analysis of the deposited data

How the results depend on the processing

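Of the 6 myosin heavy chain genes with an estimate, 3 were called; 1 (MYH1D) was called at a q-value threshold of 0.01 and 1 when an absolute log2 ratio of at least 1 was required, while 3 were called with rows under 1 FPKM in both breeds left out. Over all rows the 606 calls (357 higher in Ross 708, 249 higher in Isfahani) became 317 (202 and 115) at a threshold of 0.01 and 359 (223 and 136) with the ratio requirement. The median log2 ratio of the 6 genes, 0.92, was 0.95 with a pseudocount of 0.1 FPKM, 0.95 without one, 0.79 on rescaling to the same sum of all rows, 0.97 on rescaling without the HIDATA rows and 0.97 on centring. Rescaling to the sum of all rows moved the median of the 10020 rows that reach 1 FPKM in each breed by -0.11, since HIDATA rows hold 11.9% of the Ross 708 sum and are listed at 0 in Isfahani. Of 13 list medians, 1 changed sign, that of the myosin kinases and phosphatase, from 0.034 to -0.093 on that rescaling. No paired analysis was possible because the table holds 1 value per breed, and for the same reason no library could be left out. Depth is unknown, birds were pooled and no spread is given per breed. No precision can therefore be given for the level of any of these genes in a breed.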

Other observations

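The 39 rows without a valid estimate lay at 14 deposited intervals, and all 39 were listed at 0 in Isfahani, while 29 were listed above 0 in Ross 708. Beside the 4 fast heavy chains they held other main proteins of the fast sarcomere: ACTA1, skeletal actin, and TPM1, a tropomyosin, were listed at 0 in both breeds, while the fast troponin genes TNNI2, TNNT3 and TNNC2 were listed at 13272, 11956 and 11511 FPKM in Ross 708. None of these entries is an estimate, so these transcripts could not be compared between the breeds in this table.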
